A study of Rattus norvegicus with 10 samples.

Results

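Receptors of the neurotrophin and GDNF families were examined in axonal RNA of rat sensory neurons at an embryonic and an adult stage. They were Ntrk2, Ntrk3, Ngfr, Ret, Gfra1, Gfra2 and Gfra3, 7 of the 14217 genes measured, and every probe set whose single gene symbol named 1 of them was taken, which gave 15 of 31042 probe sets (controls not counted). A probe set is the group of array probes whose signals are summarised into 1 value. The arrays held RNA from axons of dorsal root ganglion neurons, 5 from rat embryos of day 16 and 5 from adult rats, all called biological replicates in the labels. In both groups ganglion explants had been cultured for 4 days in a chamber with compartments, and axons over 1 cm long were taken from the outer compartment. Strain, sex, the age of the adults and any pooling of animals do not appear among the labels, so p-values measure the spread between these samples. The series set embryonic against adult axons, and the question here was whether the receptors for target-derived growth factors differed between them.

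Neurotrophins are secreted proteins that keep sensory neurons alive and guide their growth. Each binds a Trk receptor tyrosine kinase, Ntrk2 (TrkB) for Bdnf and Ntrk3 (TrkC) for Ntf3, and all of them bind Ngfr, the p75 receptor, which has no kinase. Ligands of the GDNF family bind a membrane-anchored co-receptor, Gfra1 for Gdnf, Gfra2 for neurturin and Gfra3 for artemin, and the complex signals through the shared kinase Ret. In dorsal root ganglia Ntrk3 is known from proprioceptors, Ntrk2 from touch receptors, and Ret with Gfra2 or Gfra3 from pain-sensing neurons, while Ngfr, Gfra1 and short forms of Ntrk2 are also known from Schwann cells.

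No receptor passed the test for a difference between stages. Of the 15 probe sets 0 were called by limma at an adjusted p of 0.05, where 0.831% of all probe sets were called, and 0 had an unadjusted p under 0.05, where 9.84% of all did. The stages overlapped for all 15, while 2.58% of all probe sets were without overlap. Adjusted p-values ran from 0.54 to 0.99, and the lowest exact permutation p was 0.056 (two-sided, 252 labellings, smallest possible 0.0079). The adult minus embryonic difference was above 0 for 9 probe sets and below 0 for 6, with a median of 0.03 against 0.0 over all probe sets. The 95% intervals reached from 0.57 to 2.06 to either side on the log2 scale, so that for the least precise receptors, Ret and Ngfr, a change of several-fold lies inside them.

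The receptors exceeded the background of the arrays on some arrays only, as did many other probe sets. As background served, on each array, the 95th percentile over 85 genes of unrelated tissues such as liver and testis (95 probe sets), which lay between 2.92 and 4.08. Of the 15 probe sets 0 exceeded it on all 10 arrays, 5 (33.3%) on at least 5 arrays, 4 (26.7%) on 1 to 4 arrays and 6 (40.0%) on none. Over all probe sets 10.5% exceeded it on all arrays, 38.2% on at least 5, 29.2% on 1 to 4 and 32.6% on none. By array, the share above background was 13.3% to 60.0% for the receptor probe sets and 24.3% to 48.9% for all. The 5 were 1 probe set each of Ntrk2, Ngfr, Ret, Gfra2 and Gfra3. Gfra3 exceeded the level on all embryonic arrays, Gfra2 on all adult arrays, and Ntrk3 on no array of either stage. Values below the level do not show that a transcript was absent.

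**Figure D1:**
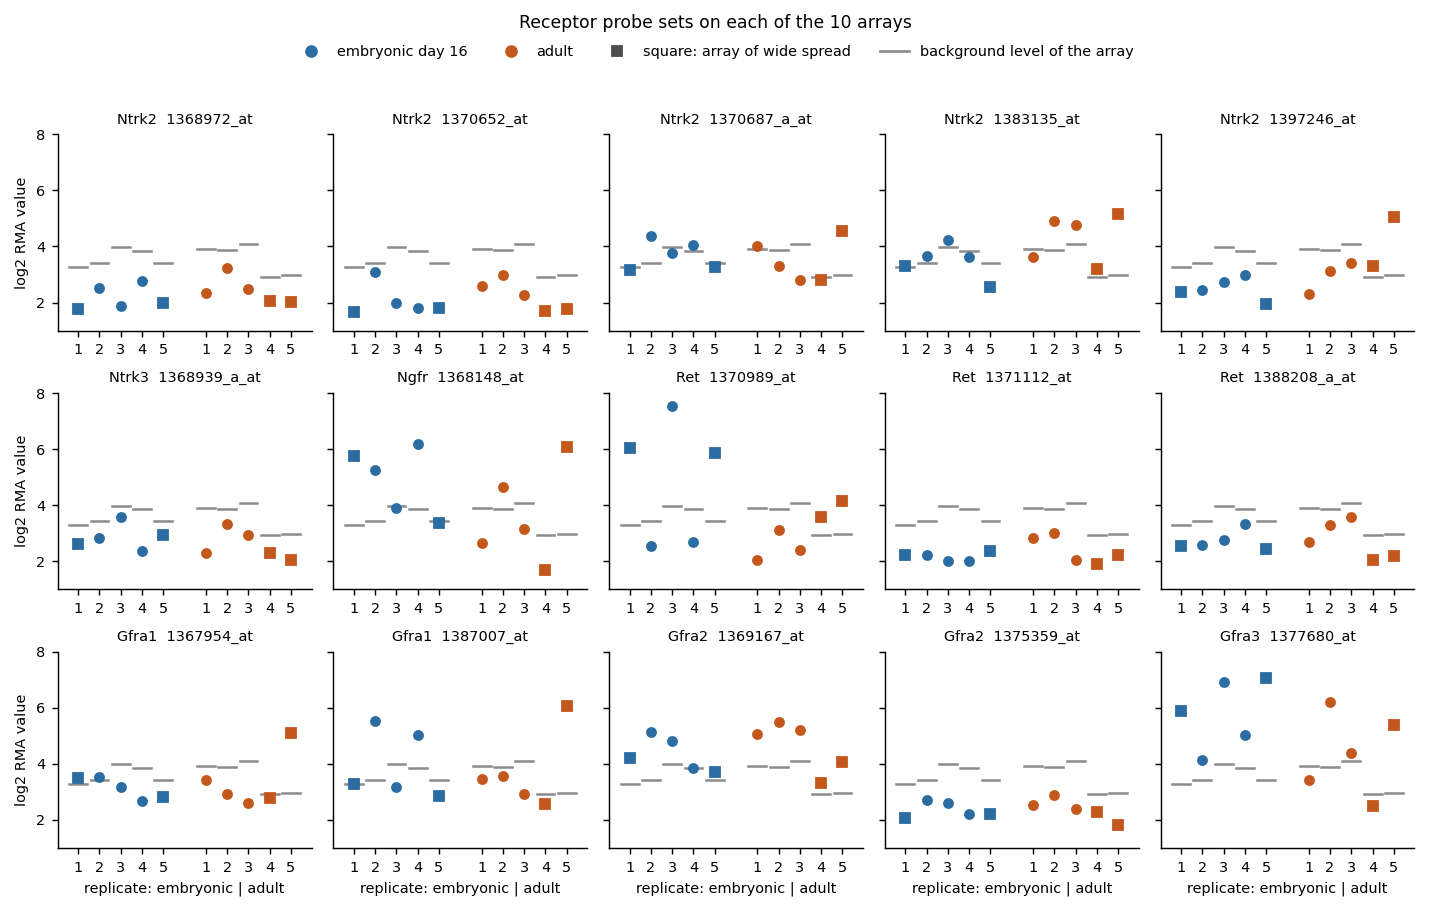
Log2 RMA value (vertical axis) of each of the 15 receptor probe sets on the 10 arrays, by replicate number within stage (horizontal axis), with the background level of each array as a grey bar. Ret and Gfra3 reach 7.54 and 7.06 on single embryonic arrays, while 6 probe sets stay below every grey bar.

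Some facts of the whole set of arrays bear on every value. Sensory neuron markers were present, with 11 of 14 above background on all embryonic and 9 on all adult arrays, and their mean log2 level was lower in adult samples (4.89 to 6.35 against 6.49 to 8.66, exact permutation p = 0.0079, or 0.029 adjusted over 11 array measures). Macrophage markers were higher in adult samples, with means of 7.08 to 8.80 against 3.26 to 6.03 and the same p-values. Mean levels of fibroblast markers (3.54 to 4.99 embryonic, 3.30 to 7.94 adult), satellite glia markers (4.48 to 6.68 and 5.33 to 6.87) and endothelial markers (2.52 to 3.67 and 2.57 to 3.06) overlapped between stages, with adjusted p-values of 0.40 to 0.57. Poly-A control transcripts, added before labelling, were at 7.75 to 11.99 on adult and 2.00 to 2.65 on embryonic arrays, also with the same p-values, so stage and labelling of the RNA cannot be told apart. The standard deviation of all values was above the middle of its range on embryonic replicates 1 and 5 and adult replicates 4 and 5, here called arrays of wide spread. The part of these measures in the results was not tested. In axon preparations fewer axons of a type and less RNA per axon cannot be told apart.

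Ret, the signalling kinase of the GDNF family, had the largest difference among the members on probe set 1370989_at. Embryonic replicates 1 to 5 were at 6.05, 2.53, 7.54, 2.70 and 5.85, and adult replicates at 2.06, 3.12, 2.41, 3.59 and 4.14. The embryonic arrays fell into high values in replicates 1, 3 and 5 and values below background in replicates 2 and 4. The adult arrays lay between these 2 sets or below them, and adult replicates 4 and 5 exceeded background. The adult minus embryonic difference was -1.87 ± 0.93 (SE, n = 5; 95% interval -3.93 to 0.19; adjusted p = 0.57). Among arrays of wide spread it was -2.09 and among the others -1.73. Without embryonic replicate 3 it was -1.22 (adjusted p = 0.80). The mean level of the sensory neuron markers on embryonic replicates 1 to 5 was 8.66, 7.39, 7.59, 6.49 and 8.50. Both other probe sets of Ret, 1371112_at and 1388208_a_at, exceeded background on 0 arrays, with differences of 0.24 and 0.03 (adjusted p = 0.89 and 0.99). The high values of Ret therefore rest on 1 of its 3 probe sets. With the mean of the 3 the difference was -0.53 (adjusted p = 0.60). That is smaller in size than those of Gfra3 and Ngfr, which have 1 probe set each. The mean includes both probe sets that exceeded background on 0 arrays, so these sizes are not like measures.

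Gfra3, the co-receptor for artemin, stood at 5.88, 4.12, 6.92, 5.01 and 7.06 on embryonic replicates 1 to 5. Its adult values were 3.43, 6.19, 4.39, 2.51 and 5.40, above background on 3 of 5 arrays. As for Ret, the highest embryonic values were those of replicates 1, 3 and 5, but adult replicate 2, at 6.19, exceeded 3 of the embryonic arrays. The difference was -1.41 ± 0.77 (SE, n = 5; 95% interval -3.11 to 0.28; adjusted p = 0.63). Within arrays of wide spread it was -2.51 (adjusted p = 0.46) and within the others -0.68 (adjusted p = 0.87).

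Gfra2, the co-receptor for neurturin, varied less. Probe set 1369167_at was at 4.21, 5.12, 4.83, 3.85 and 3.72 on embryonic and at 5.06, 5.49, 5.22, 3.32 and 4.06 on adult arrays, and exceeded background on 9 arrays, all but embryonic replicate 4. Adult replicates 1 to 3 were among the high values of both stages, and the stage ranges overlapped. The difference was 0.29 ± 0.46 (SE; adjusted p = 0.94), and -0.27 within arrays of wide spread against 0.66 within the others. Its other probe set, 1375359_at, exceeded background on 0 arrays (difference 0.03, adjusted p = 0.99).

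Gfra1, the co-receptor for Gdnf, had its highest embryonic values on replicates 2 and 4, where Ret was below background. Both genes exceeded background on embryonic replicate 1 and adult replicate 5. Probe set 1387007_at was at 3.28, 5.53, 3.16, 5.04 and 2.85 on embryonic and at 3.44, 3.57, 2.92, 2.58 and 6.05 on adult replicates 1 to 5. Embryonic replicates 2 and 4 and adult replicate 5 stood above the rest, and the difference was -0.26 ± 0.73 (SE; 95% interval -1.87 to 1.35; adjusted p = 0.97). Without adult replicate 5 it was -0.85, and arrays of wide spread gave 1.25, the others -1.27. The second probe set, 1367954_at, had its highest value, 5.11, on the same adult array, and its other 9 values lay between 2.59 and 3.54.

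Upstream sequence of 3 of the 7 members was in the RefSeq promoter table of build GRCr8. All members found there are shown, whatever their array values. Each run is the 250 bases before the annotated start, minus strand, at chr4:153040557-153040806 for Ret, chr18:26600226-26600475 for Gfra3 and chr1:267555812-267556061 for Gfra1. Capitals mark matches, on either strand, to GGGCGG, the GC box bound by Sp1.
Ret: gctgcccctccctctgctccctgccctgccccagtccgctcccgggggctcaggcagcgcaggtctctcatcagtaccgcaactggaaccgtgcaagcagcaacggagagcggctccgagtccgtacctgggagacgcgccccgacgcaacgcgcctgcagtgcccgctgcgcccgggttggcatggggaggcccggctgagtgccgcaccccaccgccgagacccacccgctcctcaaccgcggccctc
Gfra3: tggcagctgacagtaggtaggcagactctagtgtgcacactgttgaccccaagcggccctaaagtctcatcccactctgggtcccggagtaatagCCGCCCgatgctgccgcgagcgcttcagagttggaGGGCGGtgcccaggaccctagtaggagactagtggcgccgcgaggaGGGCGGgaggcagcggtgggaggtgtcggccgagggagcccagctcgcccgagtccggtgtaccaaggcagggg
Gfra1: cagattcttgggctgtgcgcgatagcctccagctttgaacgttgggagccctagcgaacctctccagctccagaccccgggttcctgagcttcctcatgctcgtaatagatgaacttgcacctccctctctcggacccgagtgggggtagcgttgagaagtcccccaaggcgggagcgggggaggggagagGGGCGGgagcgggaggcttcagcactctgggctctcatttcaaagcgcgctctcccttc
The GC box occurred 3 times in the Gfra3 window, 1 time in that of Gfra1 and 0 times in that of Ret, and 30.5% of 33469 such windows hold at least 1. The core letters TGTGGT, bound by RUNX factors of sensory neurons, were found 0 times in these 3 windows on either strand, against 14.5% of all windows with at least 1. The 3 marked matches in the Gfra3 window do not overlap. G and C made up 72.8% of the Ret, 66.0% of the Gfra3 and 62.0% of the Gfra1 window, against a median of 51.2%. The array data do not measure use of these starts.

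Ngfr, the p75 receptor, was at 5.74, 5.26, 3.91, 6.19 and 3.36 on embryonic replicates 1 to 5. On adult replicates it was at 2.65, 4.63, 3.15, 1.70 and 6.07. It exceeded background on embryonic replicates 1, 2 and 4 and adult replicates 2 and 5, and the highest adult value lay close to the highest embryonic one. The difference was -1.25 ± 0.83 (SE, n = 5; 95% interval -3.08 to 0.59; adjusted p = 0.74). Without adult replicate 5 it was -1.86 (adjusted p = 0.37), without adult replicate 4 it was -0.76, and arrays of wide spread gave -0.66, the others -1.64. Because Schwann cells also make Ngfr, their markers are given beside it. Of 13 Schwann cell markers 10 had a probe set with a single symbol. Of these 0 passed the limma threshold, against 1.26% of all genes, and 2 had an unadjusted p under 0.05, against 13.3%. Their mean level was 4.18 to 4.77 on embryonic and 4.62 to 6.30 on adult arrays (exact permutation p = 0.024, or 0.066 adjusted over 11 measures). Their summed linear signal was 302 to 569 and 627 to 4360. Of the 10 markers 8 had positive differences and 2, Sox10 and Foxd3, negative ones. The largest positive differences were those of the myelin proteins Pmp22 (2.58, adjusted p = 0.066, stages without overlap) and Mbp (2.16, adjusted p = 0.25), the calcium-binding protein S100b (1.69, adjusted p = 0.63) and the filament protein Gfap (1.30, adjusted p = 0.69). Sox10, a transcription factor that defines Schwann cells, differed by -1.07 (adjusted p = 0.73) and was at 5.42, 5.62, 5.38, 6.48 and 2.92 on embryonic and 3.72, 3.94, 4.31, 2.64 and 5.85 on adult arrays. The part of Schwann cell RNA in the Ngfr values was not tested.

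Ntrk2, the Bdnf receptor TrkB, was represented by 5 probe sets. Probe set 1383135_at had the highest mean of the 5 and was at 3.30, 3.66, 4.23, 3.61 and 2.57 on embryonic and 3.61, 4.91, 4.78, 3.20 and 5.16 on adult arrays. Adult replicates 2, 3 and 5 were above every embryonic array, and adult replicates 1 and 4 were not. The difference was 0.86 ± 0.45 (SE; 95% interval -0.13 to 1.85; adjusted p = 0.60). Probe set 1397246_at had the lowest p of all 15, with a difference of 0.95 ± 0.45 (95% interval -0.05 to 1.95; adjusted p = 0.54; exact permutation p = 0.056). Its values were 1.93 to 2.97 on embryonic arrays, all below background, and 2.30, 3.14, 3.41, 3.32 and 5.04 on adult replicates 1 to 5, of which the last 2 were above it. Arrays of wide spread gave 2.02 and the others 0.23, and leaving out 1 array gave 0.55 (without adult replicate 5) to 1.23 (without adult replicate 1). Probe set 1370687_a_at lay between 2.79 and 4.55 in both stages, with a difference of -0.23 (adjusted p = 0.95). The remaining 2, 1368972_at and 1370652_at, exceeded background on 0 arrays, with differences of 0.24 and 0.19. Which Ntrk2 transcript forms each probe set reads, full-length or without the kinase, could not be settled. Ntrk3, the receptor TrkC, was at 2.35 to 3.57 on embryonic and 2.03 to 3.34 on adult arrays, all below background, with a difference of -0.28 ± 0.33 (SE; adjusted p = 0.90).

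**Figure D2:**
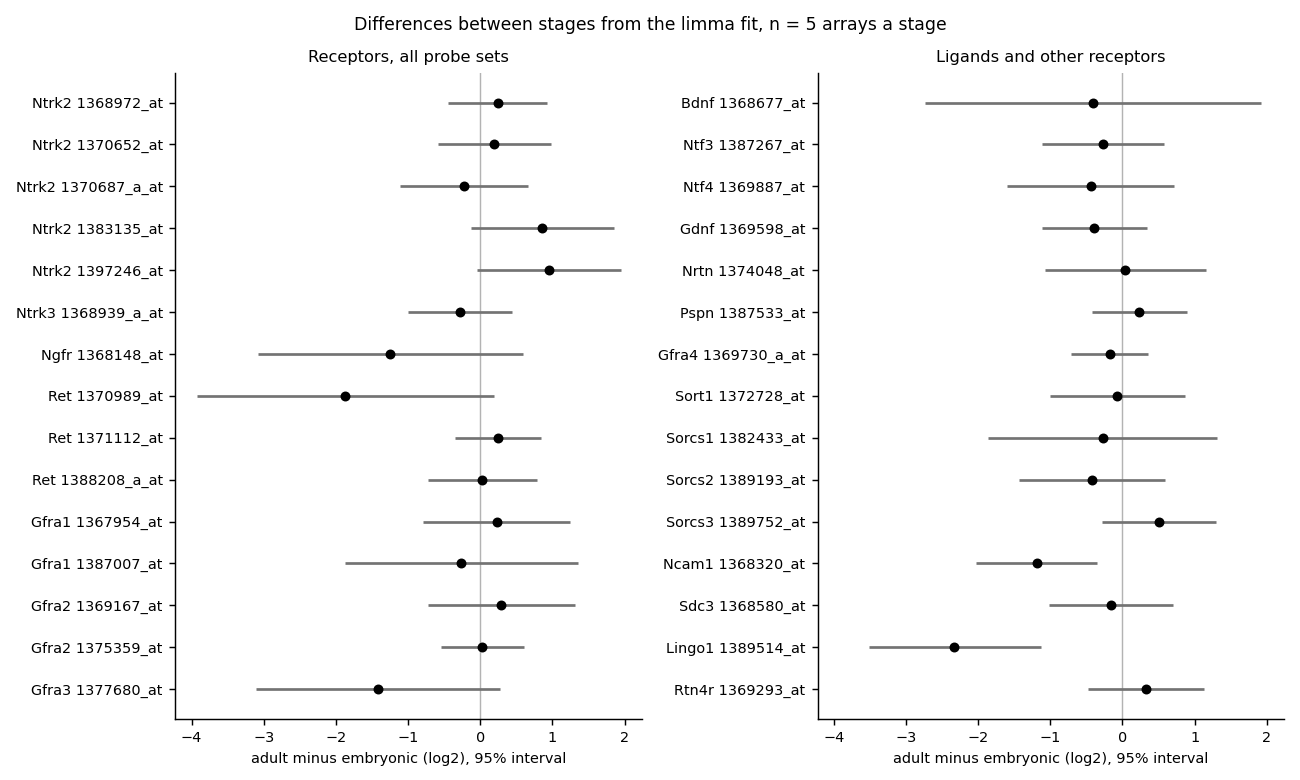
Adult minus embryonic difference on the log2 scale (horizontal axis) from limma with its 95% interval, for the 15 receptor probe sets (left) and for the most abundant probe set of each ligand and other receptor (right), 5 arrays a stage. All 15 intervals on the left include 0, and on the right those of Ncam1 and Lingo1 do not, with adjusted p-values of 0.25 and 0.091.

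To place the receptors among other transcripts, the genes whose values over the 10 arrays were most like each receptor were found by Pearson correlation among 8031 genes above background on at least 5 arrays. The highest of so many values is high by selection, so these are a ranking and have no test. Ret was followed most closely by Cadps, a protein of vesicle release, with r = 0.971 over 10 arrays, then by Cplane1 (0.964) and Nipsnap1 (0.947). Cadps had embryonic values of 7.23, 3.45, 7.96, 3.08 and 7.56, high and low on the same arrays as Ret. Gfra3 was followed by Tmem35a, a chaperone of nicotinic receptors (0.942), the thrombin receptor F2r (0.905) and the growth factor Fgf1 (0.880). Ngfr was followed by Kyat3, an aminotransferase (0.927), Tmem150a (0.893) and Sox10 (0.870), which is on the Schwann cell list. Ntrk2 was followed by Fxyd1, a regulator of the sodium pump (0.962), Tmc6 (0.875) and the mitochondrial carrier Ucp2 (0.851), and Gfra2 by Sptssb (0.902), Syt15 (0.898) and the amino acid transporter Slc36a1 (0.892). The 5 receptors shared 0 of these genes, and all points share the labelling and spread of their array.

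**Figure D3:**
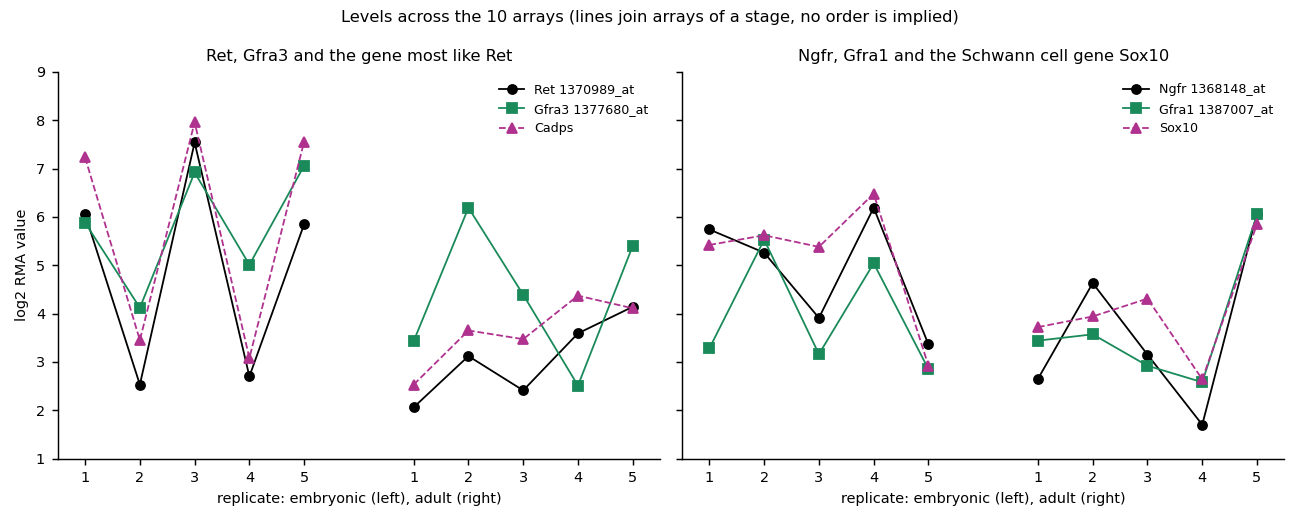
Log2 RMA values (vertical axis) on the 10 arrays by replicate number (horizontal axis) of Ret, Gfra3 and Cadps (left) and of Ngfr, Gfra1 and Sox10 (right), where lines only join arrays of a stage. Ret and Cadps are high on embryonic replicates 1, 3 and 5, and Ngfr, Gfra1 and Sox10 are all high on adult replicate 5. Heights of different probe sets are not comparable with each other.

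The ligands exceeded background on at most 6 of 10 arrays and on all arrays of neither stage. Of the neurotrophins Bdnf, Ntf3 and Ntf4 and the GDNF family ligands Gdnf, Nrtn (neurturin) and Pspn (persephin), 0 of 6 passed the limma threshold, and 0 had an unadjusted p under 0.05. Among all genes 1.26% passed the threshold and 13.3% had an unadjusted p under 0.05. Bdnf, the ligand of Ntrk2, was at 5.73 and 6.68 on embryonic replicates 1 and 5 and at 6.12 on adult replicate 3, with the other 7 arrays between 1.93 and 4.40 (difference -0.41 ± 1.05 SE, adjusted p = 0.97). Its second probe set differed by -0.40 (adjusted p = 0.75). Ntf3, the ligand of Ntrk3, and Ntf4 each exceeded background on 1 embryonic and 0 adult arrays, with differences of -0.27 and -0.44 (adjusted p = 0.93 and 0.90). Gdnf was between 3.03 and 4.64 (difference -0.39, adjusted p = 0.82), Nrtn between 2.53 and 5.40 (0.04, adjusted p = 0.99) and Pspn between 3.15 and 4.53 (0.23, adjusted p = 0.91). Artn was not analysed here, since no probe set named it alone.

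The list of other receptors, which also holds partners of Ngfr, gave 0 of 9 genes past the limma threshold, and 2 with an unadjusted p under 0.05. Over all genes these shares were 1.26% and 13.3%. Lingo1 pairs with Ngfr and the Nogo receptor. Its probe set 1389514_at was at 5.93, 4.34, 4.87, 4.42 and 7.08 on embryonic and 3.86, 2.97, 3.33, 2.19 and 2.68 on adult arrays. These ranges did not overlap, and this probe set exceeded background on 5 embryonic and 0 adult arrays. The difference of -2.33 ± 0.54 (SE) missed the threshold at an adjusted p of 0.091, and it was called after quantile normalization (-2.22, adjusted p = 0.049). The other 2 probe sets of Lingo1, 1393768_at and 1395706_at, differed by -0.05 and -0.24 (adjusted p = 0.99 and 0.85). Of these, 1393768_at exceeded background on 4 embryonic and 5 adult arrays, and 1395706_at on 0 arrays. Ncam1 is an adhesion molecule that also binds Gdnf with Gfra1. Its probe set 1368320_at exceeded background on 4 of 5 embryonic and 0 of 5 adult arrays (4.20 ± 0.70 against 3.01 ± 0.52, SD, n = 5; difference -1.19, adjusted p = 0.25). Its other probe sets, 1377368_at and 1379389_at, differed by -0.03 and 0.19 (adjusted p = 0.99 and 0.93). Of these, 1377368_at exceeded background on 0 arrays, and 1379389_at on 1 embryonic and 2 adult arrays. The sortilin family, which binds proneurotrophins with Ngfr, had differences of -0.07 for Sort1, -0.27 for Sorcs1, -0.42 for Sorcs2 and 0.50 for Sorcs3. The syndecan Sdc3 differed by -0.16, the Nogo receptor Rtn4r by 0.33 and Gfra4, the co-receptor for persephin, by -0.18, with adjusted p-values from 0.77 to 0.99 for these 7 genes.

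Downstream genes of the pathways were taken from further lists. Over the ligands, other receptors and 4 downstream lists 91 of 109 listed genes were measured. Of these 0 passed the limma threshold, against 1.26% of all genes. At an unadjusted p under 0.05 there were 20, or 22.0%, against 13.3% of all genes, with 9 higher and 11 lower in adult samples. Median differences were -0.13 for 31 adaptors and kinases, 0.03 for 11 partners of p75, -0.13 for 19 inhibitors and trafficking proteins and -0.20 for 15 transcription targets, against 0.00 over all genes. The downstream genes that follow were named after their values were seen. Bex3, a protein that binds the death domain of p75, was at 9.86, 9.53, 9.62, 9.02 and 10.71 on embryonic and 4.81, 5.21, 6.77, 7.75 and 8.47 on adult arrays. The stages did not overlap, and the difference was -3.15 ± 0.68 (SE; adjusted p = 0.066). Its relative Bex1 differed by -3.75 ± 0.91 (adjusted p = 0.11), with embryonic replicate 4 at 4.65 inside the adult range, and Maged1, another binder of p75, by -2.52 ± 0.85 (adjusted p = 0.28). Negative differences of like size stood on other lists, with -2.60 for the dynein chain Dync1i1 (adjusted p = 0.25), -2.43 for the dynein chain Dynlt1 (adjusted p = 0.32) and -2.34 for the kinase Map2k2 (adjusted p = 0.28). The small GTPases Rhoa, which p75 can activate, and Rap1a, which relays Trk signals, had positive differences of 2.19 ± 0.58 (adjusted p = 0.14) and 1.98 ± 0.50 (adjusted p = 0.12). Among the other genes with an unadjusted p under 0.05 were Plcg1 (-1.64, adjusted p = 0.11) and Adam17 (1.85, adjusted p = 0.24). The sensory neuron and macrophage markers given above moved with stage as well, and their part in these differences was not tested.

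**Figure D4:**
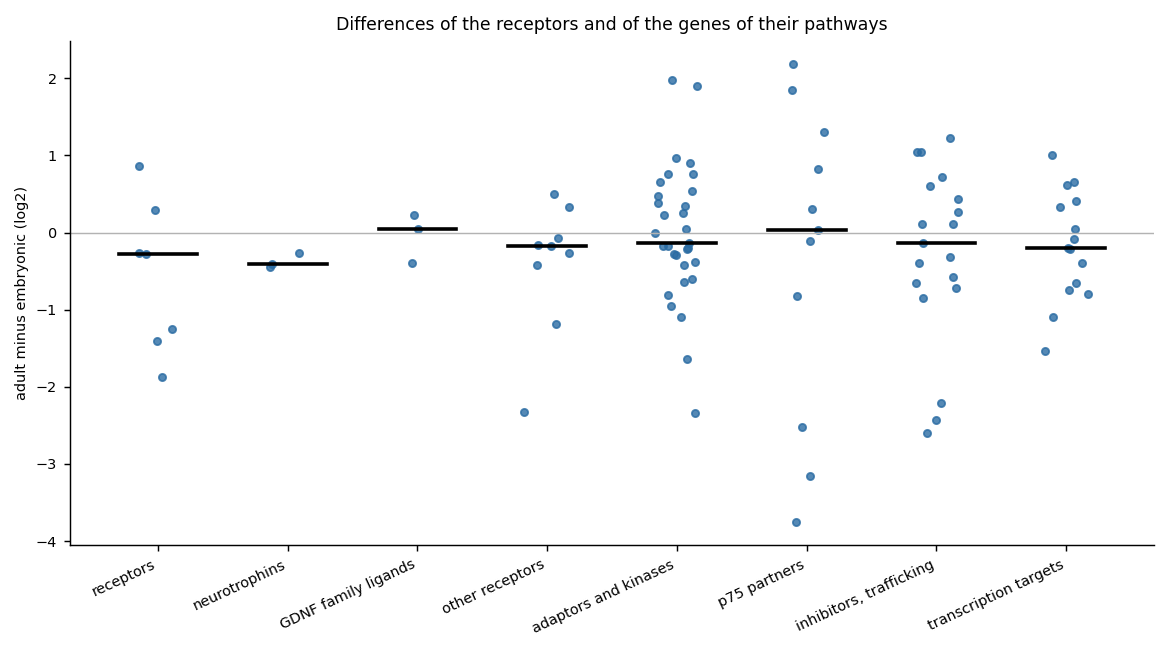
Adult minus embryonic difference on the log2 scale (vertical axis) of each gene of the 7 receptors and of the 7 pathway lists (horizontal axis), by its most abundant probe set, with the median of each list as a black line. Medians lie between -0.41 and 0.04, and the partners of p75 reach from -3.75 to 2.19.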

How the data were processed

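RNA of 10 samples, 5 embryonic and 5 adult, was measured on Affymetrix rat expression arrays. The deposited values are log2 values made by the authors with RMA, per the submitters' processing notes, and RMA compresses differences of weak probe sets. Its options are not given in these sources, and base 2 was taken from the range of 1.10 to 14.58. The table holds no detection calls, and the number of arrays limits the precision.

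Of 31099 probe sets 57 are controls. The platform annotation gives 20826 a single gene symbol, for 14217 genes, and 436 several. Each gene was read from whichever of its probe sets was brightest on average. No filter or pseudocount was used. A linear model with moderated variance (lmFit and eBayes of limma 3.58.1, R 4.3.3, two-sided) gave the differences for all 31042 probe sets, with Benjamini-Hochberg adjustment over all of them and a threshold of 0.05. The fit was tested on simulated data. Each array measure was compared between stages with an exact permutation test, two-sided (Python 3.11.15, pandas 2.3.3), and figures were drawn with matplotlib 3.10.9.

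Members and lists were chosen with earlier results of these data known. Named were all member probe sets, all ligands and other receptors, called genes of the other pathway lists (0 were called) and the 3 genes most like each receptor above background on at least 5 arrays. Downstream genes and markers named beyond this rule were chosen after their values were seen. Alternatives were other scalings, leaving out weak probe sets, array weights, a different variance model, blocks, other summaries and background levels, and leaving out each array. Some items are not reported here.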

Additional observations from a re-analysis of the deposited data

Results flagged for a closer look

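In 6 of 82 sets of 5 values, the 5 arrays of a stage for a receptor, ligand or other receptor, 1 array stood far from the other 4 (a gap of over 0.71 of the range). Chance gives about 1 in 20. Gfra1 1387007_at was at 6.05 on adult replicate 5, where the next value was 3.57. Ntrk2 1370652_at was at 3.09 on embryonic replicate 2, below background and above the next value of 1.98. Ntf4 was at 4.91 on embryonic replicate 2 against 2.88, and Sorcs1 at 6.02 on embryonic replicate 4 against 2.85. Sdc3 1368581_at was at 3.51 on adult replicate 1 against 2.95, and Rtn4r 1388972_at at 3.50 on adult replicate 3 against 2.25, both below background.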

How the results depend on the processing

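The count of receptor probe sets called by limma was 0 in every alternative of the fit (lowest adjusted p 0.12). Of 155 receptor differences over all settings but leave-one-out, 147 kept their direction. That count includes settings that leave the difference itself unchanged and so could not turn its sign. These are the different variance model, both blocks, the filter on weak probe sets and the exact permutation test. The 8 differences that changed sign did so when the fit held only arrays of 1 spread, the cause was not tested, and all were close to 0 or rest on 2 arrays a stage. Within arrays of wide spread they were 0.0 (Ntrk2 1370652_at), 0.46 (Ntrk2 1370687_a_at), -0.23 (Ret 1371112_at), -0.38 (Ret 1388208_a_at), 1.25 (Gfra1 1387007_at), -0.27 (Gfra2 1369167_at) and -0.06 (Gfra2 1375359_at), and within the others -0.14 (Gfra1 1367954_at). Leaving out 1 array gave a sign change for Ret 1388208_a_at (-0.17 to 0.21), Gfra1 1367954_at (-0.21 to 0.42), Gfra1 1387007_at (-0.85 to 0.13) and Gfra2 1375359_at (-0.09 to 0.17), and 136 of 150 such values kept their direction. The filter on weak probe sets kept 5 of the 15.

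Among ligands and other receptors the sign turned within arrays of narrow spread for Bdnf (0.96), Ntf3 (0.32), Nrtn (-0.47) and Sort1 (0.57), and within those of wide spread for Gfra4 (0.03), Sorcs1 (0.34) and Sorcs3 (-0.15). It also turned with quantile normalization for Nrtn (-0.04) and Sort1 (0.04) and with array weights for Sorcs1 (0.01). Leave-one-out ranges were -1.04 to 0.26 (Bdnf), -0.47 to 0.01 (Ntf3), -0.69 to 0.03 (Ntf4), -0.19 to 0.53 (Nrtn), -0.29 to 0.16 (Sort1), -0.60 to 0.49 (Sorcs1) and -0.37 to 0.07 (Sdc3).

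Pathway genes called numbered 4 with quantile normalization (Bex3, Lingo1, Rap1a, Rhoa), 3 with cyclic loess (Bex3, Rap1a, Rhoa), 3 with the filter on weak probe sets (Bex3, Bex1, Lingo1), 1 with array weights (Bex3), 4 with array spread as a block (Bex3, Maged1, Rap1a, Rhoa) and 4 within arrays of narrow spread (Bex3, Maged1, Map2k2, Nedd4). Leaving out 1 array gave 0 to 2, with Bex1 and Dync1i1 called without embryonic replicate 4 and Bex3 without adult replicate 5. In the main fit 5 of 14 sensory neuron markers and 4 of 7 macrophage markers were called, against 1.26% of all genes. Called sensory neuron markers numbered 3 with the replicate block, 1 within arrays of narrow spread and 0 within those of wide spread. They numbered 2 to 5 when 1 array was left out. Called macrophage markers numbered 0 within arrays of wide spread. Schwann cell markers numbered 1 with the filter on weak probe sets and 0 to 1 when 1 array was left out, and the difference of their mean level was then 0.55 to 0.97 (exact permutation p 0.016 to 0.063). With the 99th percentile as background 3 receptor probe sets exceeded it on at least 5 arrays, and 6 with the 90th. To see whether replicate numbers pair samples, deviations from the stage means were correlated over probe sets that pass the filter on weak ones. Same-numbered embryonic and adult samples gave correlations of -0.033 to 0.21. Embryonic replicates 3 and 5 were most like the adult sample of their own number, and replicates 1, 2 and 4 were not. These values do not settle whether the numbers pair samples. The replicate block gave 0 called receptors and 0 called pathway genes.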

Other observations

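Markers of sensory neuron subclasses were read for context, and 0 of 9 measured passed the limma threshold, with 2 at an unadjusted p under 0.05. Over all genes these shares were 1.26% and 13.3%. P2rx3, the ATP-gated channel of the neurons that carry Ret, was at 5.71, 4.64, 4.97, 5.03 and 7.52 on embryonic and 4.20, 4.87, 6.20, 2.64 and 4.93 on adult arrays (difference -1.01, adjusted p = 0.75). These values did not repeat the split of Ret, which was low on embryonic replicates 2 and 4. Pvalb, a calcium-binding protein of proprioceptors, which carry Ntrk3, exceeded background on 3 of 5 embryonic and 1 of 5 adult arrays (difference -1.06, adjusted p = 0.57). Runx3, a transcription factor of the same neurons that is also known from leucocytes, had values of 3.29 to 4.12 on embryonic and 4.05 to 7.93 on adult arrays (difference 1.94, adjusted p = 0.30). Runx1 had means of 7.17 and 7.16 (adjusted p = 1.0), and Cntnap2, an axonal adhesion protein, differed by -2.36 (adjusted p = 0.092).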
